A study of Homo sapiens with 8 samples.

Results

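R50 cells were compared with acutely treated wild-type (WT) cells across all genes, using 4 of the 8 arrays of the series. Both come from HCT-116, a line established from a human colorectal carcinoma. R50 is a resistant line that had been grown from the start in 50 µM NU6102 and kept there, with fresh inhibitor at each passage. The labels do not say whether its arrays hold early or late passages, nor whether the line is a single clone. WT+NU6102 cells are parental cells that had received 20 µM of the inhibitor for 24 h. Both groups therefore had the drug, but at different doses and for very different times, and their difference sets a selected line against acutely exposed cells. The other arrays hold untreated WT cells and CDK2-/- cells, with 2 arrays in each group. They share the spread of the fit and show where a level lies.

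NU6102 is a purine that inhibits CDK1 and CDK2. CDK2 with cyclins E and A drives entry into and passage through S phase, CDK4 and CDK6 with D cyclins act before it by phosphorylating RB, and CDK1 with cyclins A and B drives mitosis. RNA was labelled with a single dye, and each array of 60-base probes (Agilent) received 1 sample. A level is given here as log2 signal, the log2 of the scanner's processed signal less the 75th percentile of the same array, so that 0 is a fairly bright probe. Levels are compared between groups for 1 probe, never between genes. The 26950 probes that were well above background on both arrays of R50 or of WT+NU6102 were tested, and they represent 14547 of the 19961 named genes on the array, each by its brightest probe. A gene was called when limma's Benjamini-Hochberg adjusted p was under 0.05 and the difference at least 2-fold, 2-sided.

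The R50 arrays were on slide 1 and the WT+NU6102 arrays on slide 2. Slide and group, and likewise dose and time, cannot be told apart in this comparison. The 8 spike-in RNAs bright enough to be read differed between R50 and WT+NU6102 by -0.05 to 0.06 on the log2 scale, with a median of 0.02. Duplicate arrays differed by a median of 0.09 log2 units for R50 and 0.08 for WT+NU6102. Nothing beyond the description as biological replicates says that duplicates came from separate cultures, and p-values measure only the spread between arrays. Of 10 colon epithelium markers, 9 were well above background on all 4 arrays, VIL1 being the exception. Their summed linear signal, relative to the 75th percentile, was 895 and 880 in R50 and 618 and 638 in WT+NU6102. Of 8 fibroblast markers 7 were above background on none of the 4 arrays, and the sums were 0.28 and 0.312 in R50 and 0.133 and 0.16 in WT+NU6102. The endothelial sums were 0.589 and 0.598 against 0.612 and 0.646, and the leukocyte sums 0.713 and 0.715 against 0.893 and 0.837. Well above background on all 4 arrays were 3 of 6 endothelial markers (VWF, CDH5 and ESAM) and 3 of 8 leukocyte markers (PTPRC, CD14 and CD68). The part of these differences in the results was not tested. Each slide also holds a comparison of its own, WT+NU6102 with WT on slide 2 and R50 with CDK2-/- on slide 1, whose values are set beside those of R50 against WT+NU6102 below. All these comparisons share arrays, so no overlap or correlation between them is given.

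R50 differed from WT+NU6102 mostly by genes that were higher in R50. At the 2-fold threshold 2054 probes were higher (7.62% of those tested) and 928 lower (3.44%). By gene, 1226 were higher (8.43%) and 515 lower (3.54%), with 922 and 462 of them well above background on all 4 arrays. Without the minimum fold the balance turned, with 3957 genes higher (27.2%) and 5255 lower (36.1%), and the median difference over all genes was -0.07. For scale, NU6102 in WT cells left 179 genes higher (1.23%) and 757 lower (5.2%) than in untreated WT cells, R50 against WT gave 288 higher (1.98%) and 104 lower (0.715%), and R50 against CDK2-/- gave 445 higher (3.06%) and 266 lower (1.83%). All these counts use probes well above background in R50 or WT+NU6102. A gene seen only in WT or CDK2-/- cells was therefore not tested. On these probes R50 and untreated WT cells, also on different slides, gave fewer calls than R50 and WT+NU6102.

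**Figure D1:**
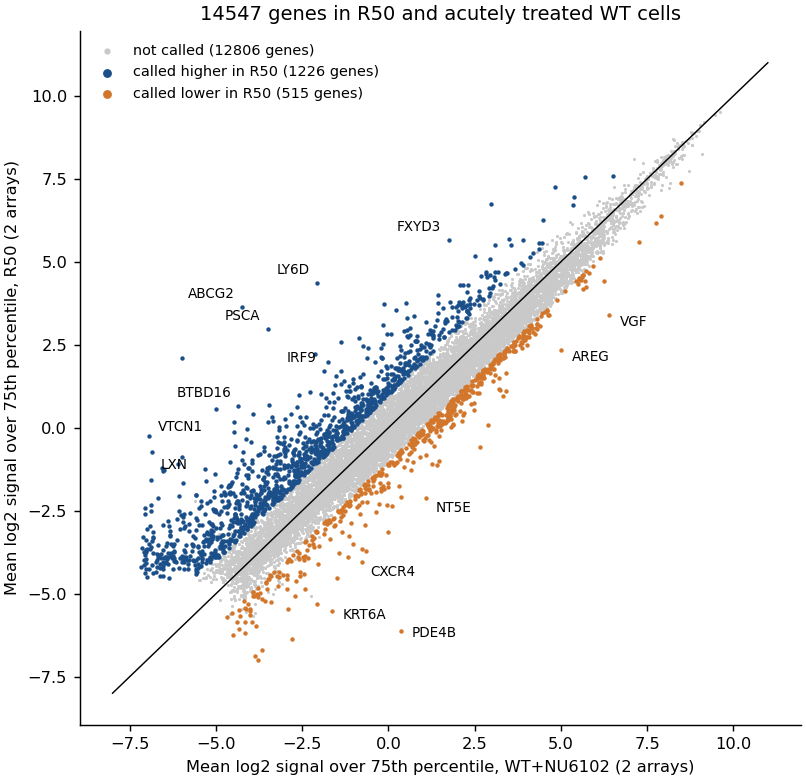
Mean log2 signal of each tested gene in WT+NU6102 (horizontal) against R50 (vertical), 2 arrays a group. Blue points are the 1226 genes called higher in R50, orange points the 515 called lower, grey points the genes not called, and the line marks equal signal. Most called genes lie within a few log2 units of the line, and ABCG2, PSCA, LY6D and PDE4B lie far from it.

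Where both groups were well above background, ABCG2 had the largest rise. It encodes an efflux pump of the plasma membrane that exports many drugs. The log2 signal was 3.71 and 3.57 on the R50 arrays and -4.20 and -4.29 on the WT+NU6102 arrays. It lay at -3.70 in untreated WT and -3.89 in CDK2-/- cells, so R50 stood apart from the other groups. The difference from WT+NU6102 was 7.89 (SE 0.21, 237-fold, adjusted p = 1.02e-05). In hg19 its probe covers chr4:89011503-89011562.

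PSCA and LY6D, a pair of GPI-anchored surface proteins of the Ly6 family whose probes lie near each other on chromosome 8 (143763976 to 143764035 and 143866309 to 143866368), came next. PSCA was at 3.04 and 2.93 in R50 and at -3.57 and -3.44 in WT+NU6102, a difference of 6.49 (SE 0.07). LY6D was at 4.42 and 4.29 in R50 and at -2.13 and -2.01 in WT+NU6102, a difference of 6.42 (SE 0.09). In untreated WT cells both lay between these levels, PSCA at -2.27 and LY6D at 0.75. FXYD3, a regulator of the sodium pump, was at 5.72 and 5.62 in R50 against 1.77 and 1.72, and TSPAN1, a tetraspanin, at 3.70 and 3.74 against -0.15 and -0.09. ALOX5, the enzyme that begins leukotriene synthesis, was at 2.25 and 2.17 against -2.06 and -2.18. The other members of the 10 largest rises were BTBD16 (5.02), PPP1R1B (4.32), CALHM3 (4.13) and TRIM45 (3.99), given as log2 differences.

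For each of these 10 genes the R50 arrays lay above both WT and both WT+NU6102 arrays, and WT+NU6102 lay below untreated WT. Within slide 2 the difference of WT+NU6102 from WT ran from -0.55 for ABCG2 to -3.04 for BTBD16. Across the slides the difference of R50 from WT ran from 1.64 for CALHM3 to 7.34 for ABCG2. For ABCG2 and TRIM45 the distance from WT was the larger on the side of R50, at 7.34 and 2.95 against -0.55 and -1.03, and for BTBD16 and CALHM3 on the side of the acute treatment, at -3.04 and -2.50 against 1.99 and 1.64. Within slide 1, FXYD3 in R50 differed from CDK2-/- by 0.13, whereas PPP1R1B was not well above background there. Adjusted p-values of these rises against WT+NU6102 were between 5.97e-06 and 5.06e-05.

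The largest falls were smaller. CXCR4, the receptor of the chemokine CXCL12, was at -4.12 and -3.97 in R50 and at -0.83 and -0.72 in WT+NU6102, a difference of -3.27 (SE 0.08, 9.64-fold). Untreated WT cells, at -3.84, were near R50, and the drug had raised CXCR4 by 3.07 within slide 2. VGF, a secreted neuropeptide precursor, and INF2, an actin-nucleating formin, were also raised by the drug within slide 2, by 1.75 and 1.98, but lay lower in R50 than in WT, by -1.26 and -0.82. VGF was at 3.40 and 3.38 in R50 against 6.36 and 6.43, with WT at 4.65, and INF2 at 0.00 and 0.15 against 2.86 and 2.89, with WT at 0.89. INF2 depends on the probe, since its other tested probes differed by 0.51 and 0.47 in the opposite direction. SNAR-G1, at -0.63 and -0.55 against 2.60 and 2.72, belongs to a family of near-identical noncoding RNAs whose copies a probe may not separate, and its other tested probe differed by -0.63.

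NT5E, PKIB, ARMC4, MKX and ZNF430 were each called lower in R50 than in untreated WT cells as well, as was VGF. NT5E, which encodes the surface 5'-nucleotidase CD73, was at -2.27 and -1.96 in R50 and 1.08 and 1.11 in WT+NU6102, and the difference from WT was -2.06. In CDK2-/- cells, on the slide of R50, NT5E was at -2.39, and with the CDK2-/- less WT difference subtracted, which removes the slide together with any effect of the knockout, its difference was -0.87 and it lost its call. PKIB, an inhibitor of protein kinase A, was at -3.71 on both R50 arrays and at -0.63 and -0.65 in WT+NU6102, with WT at 0.22 and CDK2-/- at 1.47. ARMC4 (ODAD2 in the current reference), MKX and ZNF430 differed from WT+NU6102 by -3.12, -2.70 and -2.88, and from WT by -4.001, -3.52 and -2.18. AREG, which encodes the EGF receptor ligand amphiregulin, is described with its family below. The adjusted p-values of the 10 falls lay between 6.43e-06 and 9.04e-05.

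**Figure D2:**
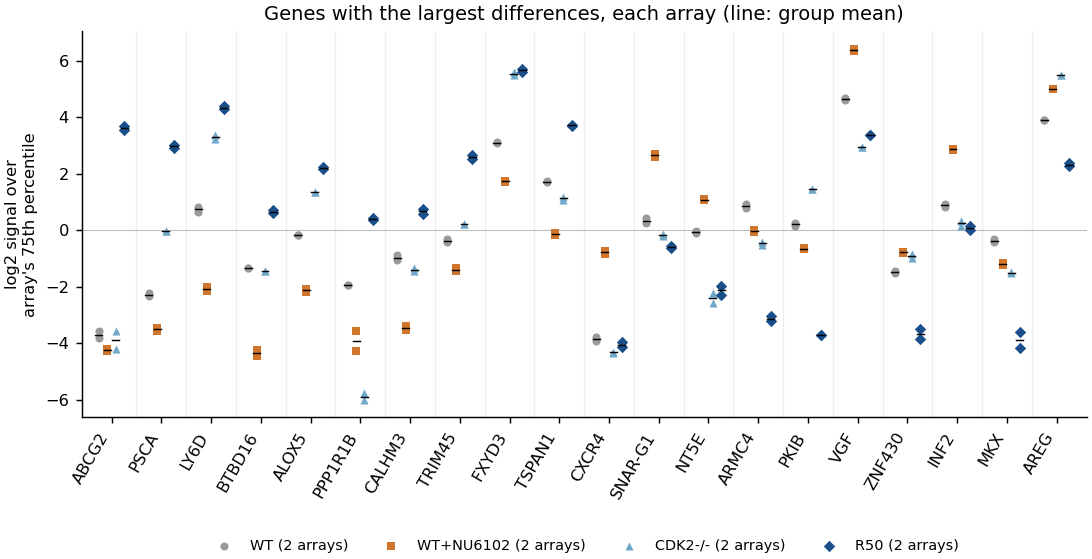
Log2 signal of the 10 largest rises (left) and 10 largest falls (right) of R50 against WT+NU6102 on each of the 8 arrays. Symbols mark the groups and short lines their means. In all 20 genes the R50 and WT+NU6102 arrays are apart, and the grey WT arrays show whether R50, the acutely treated cells or both had left the untreated level.

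Some genes were measured on only one side. Of the 1226 genes called higher, 218 were well above background on both R50 arrays while no probe of theirs was so on a WT+NU6102 array. Of the 515 called lower, 42 were the other way round. Such genes entered the test only through the group where they were high, and the list counts below include those that belong to a list. Of all 14547 genes tested, 13827 were well above background on all 4 arrays. A fold is then a lower bound, the bright group's mean against the mean over the dim arrays of the lowest signal well above background there, or of the probe's own signal where that was higher. VTCN1, the immune checkpoint protein B7-H4, was at -0.22 and -0.30 in R50 and was at least 23.6-fold higher, and LXN, a carboxypeptidase inhibitor, was at -0.68 and -0.80 and at least 16.98-fold higher. Neither was above background in WT or CDK2-/- cells. ANK1 and MYRIP were at least 15.4-fold and 12.2-fold higher, and both were above background in at least 1 WT array.

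In the other direction PDE4B, a phosphodiesterase that degrades cAMP, was at 0.34 and 0.37 in WT+NU6102 and not well above background in R50, at least 35.5-fold lower. It was at 0.97 in WT and 2.02 in CDK2-/- cells, and R50 was the single group without it. KRT6A, a keratin of stressed and wounded epithelium, was at -1.67 and -1.62 in WT+NU6102 and at least 8.86-fold lower in R50, but it was also below background in WT. GNG11, THBD and WNT16 were at least 8.33-fold, 4.66-fold and 3.96-fold lower in R50, and all were above background on both WT arrays. The WT+NU6102 arrays of THBD disagree, at -1.70 and -3.16. GNG11, a G protein subunit, was also below background in CDK2-/- cells.

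A few further genes stood out in the plot of group means and were chosen after their values were seen. The brightest probe of NCAM1, a neural cell adhesion molecule, was at 2.16 and 2.02 in R50 and lay in WT+NU6102 below the weakest signal that was well above background on either array, so its level there is only bounded. Among bright genes UCA1, a long noncoding RNA, was at 6.73 and 6.74 against 2.98 and 2.98, and S100A4, a calcium-binding protein, at 7.31 and 7.23 against 4.84 and 4.83. ODC1, which begins polyamine synthesis, was at 5.58 and 5.64 in R50 against 7.26 and 7.26 in WT+NU6102.

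Interferon response genes had the largest share of rises among the functional lists. Interferons act through receptors at the cell surface and a complex that holds IRF9 and binds promoters of genes that block viruses, and many cells keep a low level of this program without infection. Of 70 genes listed, 63 were tested, 33 were higher in R50 (52.4%, against 8.43% of all genes) and none was lower. All 63 were well above background on both R50 arrays, but 56 and 55 on the WT+NU6102 arrays. The 33 thus include members that entered the test only through R50. When both groups had to be well above background, 25 were higher. The median difference was 1.05, against -0.07 over all genes. ZBP1, IFI16, GBP1, EPSTI1, CXCL10, CXCL11 and CCL5 were not well above background in either group. By role, 27 of 46 effectors, 4 of 11 signalling genes and 2 of 6 sensors were called.

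Among the signalling genes called was IRF9, which binds DNA in that complex. IRF9 was at 1.69 and 1.71 in R50 and at -1.76 and -2.00 in WT+NU6102, a difference of 3.58 (SE 0.09, 11.99-fold, adjusted p = 9.90e-06). The R50 level lay below that of untreated WT cells, at 1.93. Among effectors, PARP10 was at 1.04 and 1.14 against -2.26 and -2.30, and PARP9, a partner of the ubiquitin ligase DTX3L, at 0.05 and 0.04 against -2.70 and -2.62. OAS1, which makes the activator of RNase L, was at -0.72 and -0.74 against -4.19 and -4.24. Its adjusted p was 0.0104, and rose to 0.0518 without R50 replicate 1 and 0.0544 without WT+NU6102 replicate 2, although the arrays of each group agree. The limma fit shares its spread with the CDK2-/- arrays, where OAS1 was well above background on 1 of 2.

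The rise was uneven within the list. SAMD9L was not above background in WT+NU6102 and at least 6.49-fold higher in R50, at -2.06 and -2.19. IFI44L was likewise below background in WT+NU6102, but in R50 it reached just -4.29 and -4.45, at least 1.37-fold higher, against -1.48 in WT. This bound is short of the 2-fold minimum, so the call of IFI44L rests on WT+NU6102 signal too weak to measure. ISG15, at 6.15 and 6.17 against 5.57 and 5.62, and IFI6, at 4.82 and 4.88 against 4.71 and 4.69, were not called. Both were lower in R50 and in WT+NU6102 than in WT, where their levels were 7.23 and 5.99.

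By array, the list's median log2 signal was 0.79 and 0.83 in R50, -0.44 and -0.47 in WT+NU6102, 1.58 and 1.43 in WT and -0.77 and -0.61 in CDK2-/- cells. The R50 arrays thus lay between the untreated and the treated WT arrays, and above CDK2-/- on their own slide. Within slide 2, 46 of the 63 genes were lower with NU6102 than without and none higher, with a median of -1.47. Within slide 1, 30 were higher in R50 than in CDK2-/- and 1 lower, with a median of 0.90. Across slides, 11 were lower in R50 than in WT and 1 higher, with a median of -0.61. Of 24 antigen presentation genes 22 were tested, with 2 higher in R50 (9.09%) and a median of 0.43, near the 8.43% of all genes. The 2 were HLA-DMB, an editor of MHC class II peptides, at -0.62 and -0.74 against -2.95 and -2.95, and the immunoproteasome subunit PSMB9, at 1.25 and 1.26 against 0.14 and 0.18.

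**Figure D3:**
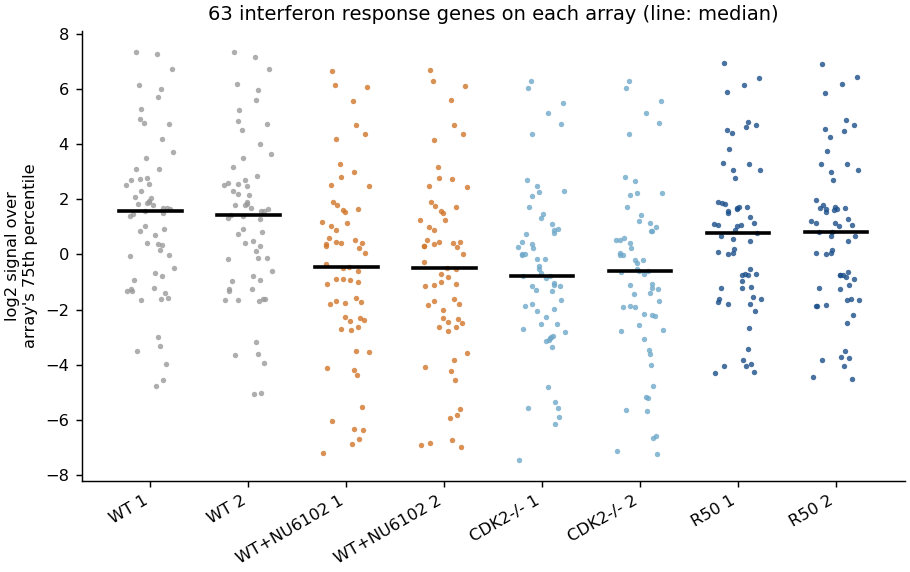
Log2 signal of the 63 tested interferon response genes on each array, one point a gene at the same horizontal offset on every array, with a bar at the median. The medians of the R50 arrays (0.79 and 0.83) lie below WT and above WT+NU6102 and CDK2-/-.

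Many of these promoters hold the core of the interferon-stimulated response element, searched as GAAA, any 2 bases and GAAA again, on both strands in the 250 bases before each start. RefSeq promoters (GRCh38.p14) were in the table for 47 of the 63 genes, and 24 of them (51.1%) hold it at one start or more, against 1014 of all 27305 genes (3.71%). The share was 52% of the 25 that were called and 50% of the 22 that were not. A few are printed from 5' to 3' up to the base before the start, with each match in capitals, to set called genes beside one that was not: chr1:78620198-78620447 on the plus strand for IFI44L, chr10:89392373-89392622 on the plus strand for IFIT1, chr11:313790-314039 on the plus strand for IFITM1 and chr1:27672193-27672442 on the minus strand for IFI6.
IFI44L: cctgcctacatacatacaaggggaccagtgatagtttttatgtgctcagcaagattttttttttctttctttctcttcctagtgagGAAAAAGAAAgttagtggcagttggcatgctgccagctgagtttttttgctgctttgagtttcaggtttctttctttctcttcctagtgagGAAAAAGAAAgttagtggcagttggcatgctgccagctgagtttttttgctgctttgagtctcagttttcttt
IFIT1: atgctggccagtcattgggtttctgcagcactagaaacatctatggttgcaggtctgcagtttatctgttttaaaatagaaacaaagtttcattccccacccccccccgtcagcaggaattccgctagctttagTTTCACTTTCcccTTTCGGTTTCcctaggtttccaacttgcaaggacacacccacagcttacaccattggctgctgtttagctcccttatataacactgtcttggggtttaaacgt
IFITM1: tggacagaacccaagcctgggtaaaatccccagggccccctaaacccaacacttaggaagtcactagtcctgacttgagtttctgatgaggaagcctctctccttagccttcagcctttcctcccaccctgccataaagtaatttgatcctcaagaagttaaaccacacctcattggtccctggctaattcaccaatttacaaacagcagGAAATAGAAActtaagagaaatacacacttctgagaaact
IFI6: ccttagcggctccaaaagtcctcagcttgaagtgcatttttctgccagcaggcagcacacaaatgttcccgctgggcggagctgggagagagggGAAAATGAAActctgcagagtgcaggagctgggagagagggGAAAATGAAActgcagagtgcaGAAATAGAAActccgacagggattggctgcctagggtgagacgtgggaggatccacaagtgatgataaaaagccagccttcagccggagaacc
IFI44L and IFIT1 hold 2 matches each, on opposite strands between the 2 genes, IFITM1 holds 1 and IFI6 holds 3. IFIT1 was at 3.82 and 3.75 in R50 against 1.78 and 1.77 in WT+NU6102, and IFITM1 at 4.63 and 4.49 against 2.98 and 2.74. IFI6, with the most matches of the printed genes, differed by 0.15. A match is a stretch of letters and says nothing of binding in these cells.

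ABCG2 belongs to the ABC family, most but not all of whose members are transporters. Of 43 listed, 30 were tested, 7 were higher in R50 (23.3%, against 8.43%) and 2 lower. Beside ABCG2, the multidrug resistance proteins of the C branch gave ABCC3, at 2.96 and 2.85 in R50 against 0.49 and 0.41, and ABCC2, at 3.75 and 3.84 against 2.09 and 2.01. Another ABCC3 probe differed by 0.51. ABCC3 in R50 was near WT, at 2.58, while ABCC2 was above it, also at 2.58. ABCB1, which encodes P-glycoprotein, was at -3.90 and -3.81 in R50 and not well above background in WT+NU6102. It was at least 1.96-fold higher, a bound short of the 2-fold minimum. ABCA12, a lipid transporter, was at 0.10 and 0.06 against -2.44 and -2.46. With the CDK2-/- less WT difference subtracted, ABCC2 (0.27) and ABCA12 (0.35) lost their calls. ABCF1 and ABCB10 were the 2 that were lower, by -1.30 and -1.22. The median of the list was 0.16.

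Genes of drug metabolism and oxidant defence gave 9 higher (20.5%, against 8.43% of all genes) and 3 lower of 44 tested, with a median of 0.12. Of the higher ones 8 were oxidizing or conjugating enzymes. AKR1C3, a ketosteroid and carbonyl reductase, was at -1.37 and -1.85 in R50 and at least 9.27-fold higher. ALDH1A3, which makes retinoic acid, was at 5.69 and 5.65 against 4.004 and 3.80, and above WT, at 4.14. SULT2B1, a sterol sulfotransferase, was at -1.45 and -1.39 against -4.04 and -4.21, and equal to WT within 0.09. CYP1A1 and CYP1B1, oxidases that the aryl hydrocarbon receptor induces, were lower in R50, by -1.06 and -1.81. Within slide 2 their brightest probes were higher with the drug by 1.79 and 1.26. Another CYP1B1 probe differed there by 0.20 (limma adjusted p = 0.739) and was not well above background in R50. With the CDK2-/- less WT difference subtracted, the brightest CYP1B1 probe was at -0.98 and lost its call. Of 11 tested genes of the NRF2 oxidant response, targets and regulators together, none was higher and 1 was lower. Beside 8.43% higher and 3.54% lower of all genes, a set this small can hold none.

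Intestinal differentiation genes and surface and matrix genes followed. Of 26 tested intestinal genes 9 were higher (34.6%, against 8.43% of all genes) and none lower, with a median of 0.43. Of 43 listed, 17 were not well above background in either group, among them HNF4A, VIL1, SI and FABP1. Those that were higher included CEACAM1, an adhesion molecule, at 0.72 and 0.54 against -2.56 and -2.75, LCN2, an iron-binding defence protein, at 2.41 and 2.37 against -0.59 and -0.59, SPINK4, a goblet cell product, at -1.22 and -1.19 against -4.16 and -3.94, and the epithelial transcription factor ELF3, at 2.99 and 2.89 against 0.53 and 0.54. All 4 lay above untreated WT in R50 and below it in WT+NU6102.

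Of 42 integrin and matrix genes 13 were higher (31%, against 8.43% of all genes) and none lower, with a median of 0.58. When both groups had to be well above background, 10 were higher. With the CDK2-/- less WT difference subtracted, which removes the slide together with any effect of the knockout, the higher genes numbered 8. SPARC, a collagen-binding matrix protein, was at 5.28 and 5.10 against 2.55 and 2.47. It was at -4.11 in CDK2-/- cells, so that the difference within slide 1 was 9.30. COL9A3 was at 4.32 and 4.29 against 2.07 and 2.07, ITGB7 at -0.32 and -0.25 against -2.47 and -2.36, and LAMA4 at -1.18 and -1.22 against -3.73 and -3.29, although 1 of 4 LAMA4 probes differed by -0.30. For COL9A3, ITGB7 and LAMA4 the larger distance was between R50 and WT, at 1.53, 1.99 and 1.71, and the acute change was -0.70, -0.14 and -0.60. COL1A1, listed here, is also a fibroblast marker and was at -2.24 and -2.15 against -3.67 and -3.53, while the other 7 fibroblast markers were above background on none of the 4 arrays.

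Junction and keratin genes gave 8 higher (21.6%, against 8.43% of all genes) and 2 lower of 37 tested. KRT23 was at 2.56 and 2.37 against -0.66 and -0.83, KRT13 at -1.35 and -1.38 against -4.52 and -4.25, and the tight junction scaffold TJP3 at 0.33 and 0.43 against -1.66 and -1.86. CLDN2, a pore-forming claudin, was lower in R50, at -3.50 and -4.07 against -1.42 and -1.43, and its level in WT was higher than in either, at -0.25. It was low in CDK2-/- cells as well, at -3.18. With the CDK2-/- less WT difference of -2.93 subtracted, which holds slide and knockout together, its difference was 0.57 (limma adjusted p = 0.122).

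**Figure D4:**
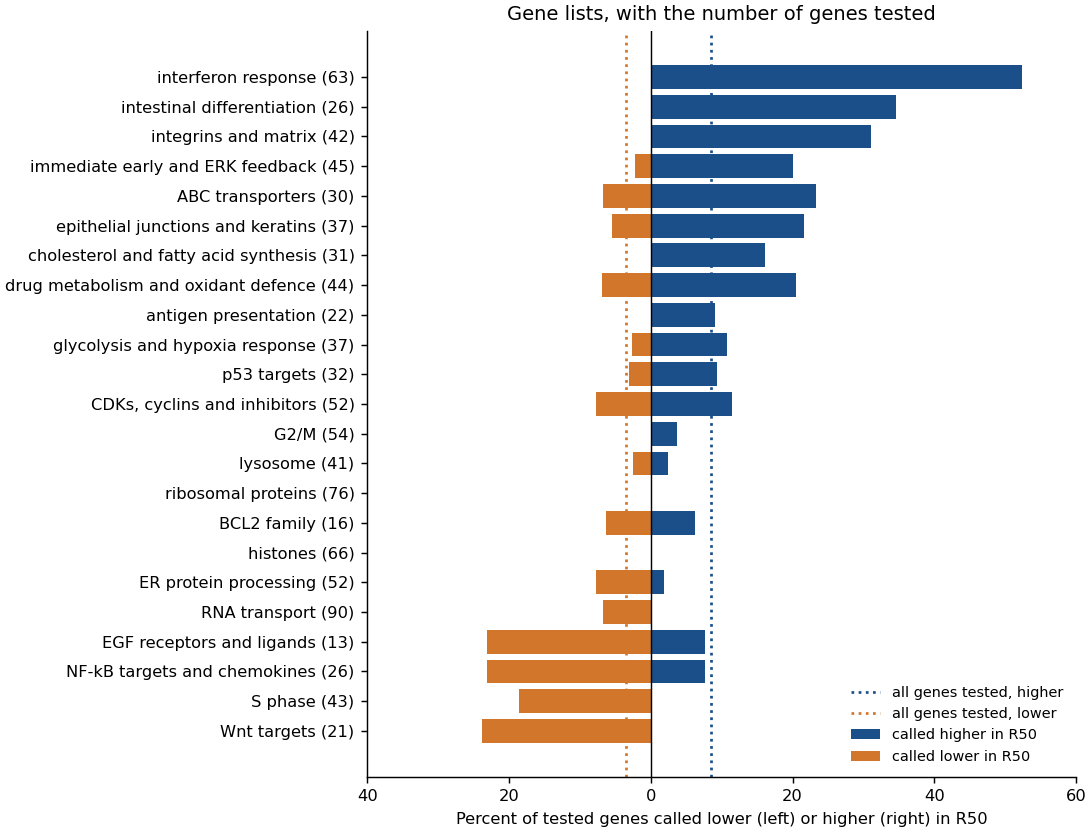
Share of the tested genes of each list called higher (right, blue) or lower (left, orange) in R50 than in WT+NU6102, with the number tested in parentheses. Dotted lines mark the shares over all 14547 genes, 8.43% and 3.54%. Interferon response genes reach 52.4% higher, and no histone or ribosomal protein gene passed the threshold.

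Of 43 S phase genes 8 were lower in R50 (18.6%, against 3.54% of all genes) and none higher, with a median of -0.48. CCNE2, a cyclin of S phase entry, was at 1.08 and 1.001 in R50 and 2.54 and 2.60 in WT+NU6102. EXO1, an exonuclease of repair, was at 0.38 and 0.44 against 1.69 and 1.76, CLSPN, which links stalled forks to CHK1, at -1.02 and -0.85 against 0.27 and 0.38, and TIPIN, a fork protection factor, at 3.12 and 3.16 against 4.3002 and 4.297. CCNE2 in R50 was near WT, at 1.19, and the other genes named lay below it, EXO1 by -0.46, CLSPN by -0.48 and TIPIN by -0.67. The E2F core TTTNGCGC stood before a start of 9 of 32 S phase genes with a promoter in the table (28.1%), against 1.84% of all genes, and of the called genes TIPIN alone held it. Of 54 G2/M genes 2 were higher (3.7%, against 8.43% of all genes) and none lower, with a median of -0.28. Whatever the fold, 28 were lower and 7 higher at an adjusted p under 0.05, beside 36.1% and 27.2% of all genes. The 2 past the threshold were CDC25C and GAS2L3. CDC25C, the phosphatase that activates CDK1, was at -0.26 and -0.23 against -1.31 and -1.37. GAS2L3 was at -1.17 and -1.27 against -2.22 and -2.24. Both lost their calls with normexp background correction, at 0.94 and 0.73. None of 66 histone genes was called, at a median of 0.15.

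Of 52 CDK, cyclin and inhibitor genes 6 were higher and 4 lower (7.69%), although the median was -0.26. At the 2-fold threshold none of 17 kinases or 10 inhibitors was lower, and none of 17 cyclins higher. Beside 3.54% lower and 8.43% higher of all genes, roles this small can hold none, so no division by role is drawn. Whatever the fold, 10 kinases were lower and 6 higher at an adjusted p under 0.05. For inhibitors 2 were lower and 6 higher, and for cyclins 11 lower and 3 higher. By the same rule 36.1% of all genes were lower and 27.2% higher, and no division by role is drawn from these counts either. CCNE1, which encodes cyclin E1, was at 4.29 and 4.18 in R50 and 5.76 and 5.72 in WT+NU6102, a difference of -1.499 (SE 0.06, adjusted p = 2.47e-05). The phosphatase gene CDC25A was at 0.26 and 0.39 against 1.77 and 1.77. CDKN1C, which encodes the inhibitor p57, was at 2.48 and 2.41 against 0.97 and 0.9996, and CDK18, a kinase of the PCTAIRE group, at -1.12 and -1.23 against -3.22 and -3.47. For CCNE1 and CDKN1C the R50 level was that of untreated WT within 0.33 and 0.06.

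Most of the core regulators differed by less than 2-fold. CDK1 was at 3.06 and 3.06 against 4.04 and 4.03, a difference of -0.97, but its other probe differed by -0.05 (adjusted p = 0.887). CDK2 was at -1.10 and -1.09 against -0.44 and -0.42, CDK4 at 4.18 and 4.18 against 4.75 and 4.79, CCNA2 at 2.06 and 2.23 against 2.94 and 2.96, and CCND1 at 2.23 and 2.38 against 2.90 and 2.89. CCNB1 differed by -0.37 with its brightest probe and by 0.64 with another. CCND3 was at 0.75 and 0.86 against 1.78 and 1.85, just past the threshold at -1.01 and short of it without R50 replicate 1 (-0.96) or WT+NU6102 replicate 2 (-0.98), and CDC6, which licenses replication origins, at -2.55 and -2.43 against -1.40 and -1.32. Within slide 2, the brightest probes of these genes were higher in WT+NU6102 than in WT by between 0.15 for CCNB1 and 0.85 for CCND3, and the other CCNB1 probe was lower by -0.78.

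CDK6 went against this order. It was at 2.57 and 2.53 in R50 and at 2.35 and 2.29 in WT+NU6102, so that both stood well above WT, at 0.94, and CDK2-/-, at 1.05. The difference between them was 0.23 (SE 0.05, adjusted p = 0.00933), and each within-slide difference was larger, 1.38 for WT+NU6102 against WT and 1.5003 for R50 against CDK2-/-. RB1 and CDKN1A, which encodes p21, differed by 0.18 and 0.27, with adjusted p-values of 0.0414 and 0.0284. For each of these genes the R50 arrays lay above the WT+NU6102 arrays. RB1 and CDKN1A turned to -0.69 and -0.06 once the CDK2-/- less WT difference was subtracted, and CDK2 to 0.11.

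**Figure D5:**
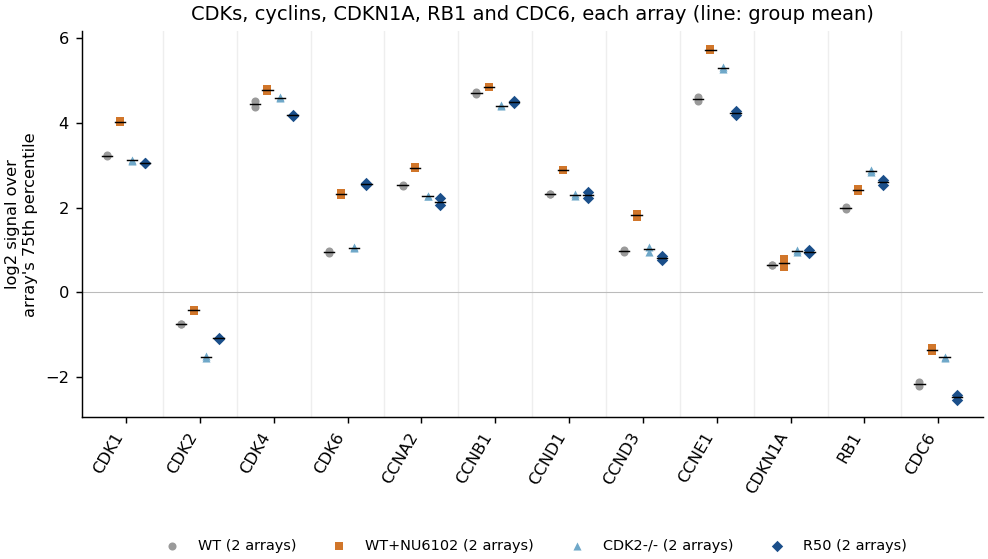
Log2 signal of 12 cell cycle genes on each of the 8 arrays, with symbols for the groups and short lines for their means. WT+NU6102 (orange) lies above R50 (dark blue) for CDK1, CDK2, CDK4, CCNA2, CCNB1, CCND1, CCND3, CCNE1 and CDC6, and CDK6 is high in both.

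Signalling targets differed in direction between lists. Of 45 immediate early and ERK feedback genes 9 were higher (20%, against 8.43% of all genes) and 1 lower. None of the 13 feedback genes was called, too few to set against that share. Of the 23 transcription factors 7 were higher. FOS was at 3.12 and 3.04 in R50 against -0.25 and -0.06 in WT+NU6102, a difference of 3.24 (SE 0.08), and FOSB at 0.00 and -0.16 against -3.27 and -3.07. ID3, a target of BMP signals, was at 3.65 and 3.64 against 1.79 and 1.89. KLF2 was lower, at 2.46 and 2.36 against 3.81 and 3.94. FOS in R50 lay within 0.35 of WT and KLF2 within 0.06. With the CDK2-/- less WT difference subtracted, ID3 (0.60) and KLF2 (-0.16) lost their calls, KLF2 with limma's adjusted p at 0.211.

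Of 26 NF-kB targets and chemokine genes 6 were lower (23.1%, against 3.54% of all genes) and 2 higher. Of the lower genes 5 were CXCR4 and neutrophil chemokines, CXCL1 at -1.56 and -1.77 against -0.13 and 0.09, CXCL2 by -1.13, IL8 (now CXCL8) by -1.04 at a level near background, and CXCL3 at -4.23 and -4.61 against -1.66 and -3.25. The WT+NU6102 arrays of CXCL3 disagree, and limma's adjusted p rose from 0.0174 to 0.061 with only the 4 arrays in the fit, to 0.0541 without R50 replicate 1 and to 0.0829 without R50 replicate 2. With the CDK2-/- less WT difference subtracted, CXCL1 was at -0.16 (limma adjusted p = 0.457) and CXCL3 at -1.15 (0.234), and both lost their calls. TNFAIP2 was higher, at 5.14 and 5.06 against 2.96 and 2.95. Of 21 Wnt target genes 5 were lower (23.8%, against 3.54% of all genes) and none higher, 4 of them among the 7 feedback genes tested. The median of the list was 0.30, opposite in sign to its calls. AXIN2, a scaffold that limits beta-catenin, was at -2.60 and -2.49 against -0.29 and -0.42, and the receptor-removing ligase RNF43 at -2.68 and -2.59 against -1.33 and -1.27. AXIN2 in R50 was within 0.39 of WT. RNF43 was below WT by -1.40, and WT+NU6102 differed from WT by -0.07.

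Of 13 EGF receptor and ligand genes 3 were lower (23.1%, against 3.54% of all genes) and 1 higher, all ligands. AREG was at 2.38 and 2.28 in R50 and 4.99 and 5.01 in WT+NU6102, a difference of -2.67 (SE 0.05, 6.38-fold), and EREG, which encodes epiregulin, at 1.21 and 1.004 against 3.44 and 3.40. Both were below WT in R50, by -1.59 and -1.64, and above it in WT+NU6102, by 1.09 and 0.67. HBEGF was at -2.29 and -2.20 against -0.74 and -0.77, and in R50 equal to WT within 0.07. BTC was at -3.67 and -4.15 in R50 and at least 1.89-fold higher. That bound is short of the 2-fold minimum, so its call rests on WT+NU6102 signal too weak to measure. None of the 3 receptor genes tested was called, too few to set against the share of all genes.

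Sterol and fatty acid genes were mostly higher in R50, by modest folds. Of 31 cholesterol and fatty acid synthesis genes, all tested, 5 were higher (16.1%, against 8.43% of all genes) and none was lower. Whatever the fold, 27 were higher and 1 lower at an adjusted p under 0.05, beside 27.2% and 36.1% of all genes. The median was 0.71. SREBF1, the transcription factor of lipid synthesis, was at 6.29 and 6.22 against 4.49 and 4.47, although its other probe differed by -0.01. INSIG1, which retains SREBP in the endoplasmic reticulum, was at 2.67 and 2.57 against 0.81 and 0.77, and LSS, lanosterol synthase, at 2.39 and 2.45 against 1.06 and 1.003. INSIG1 and SREBF1 in R50 were at the WT level within 0.09 and 0.19. Within slide 2 the median of the list was -0.54, and against CDK2-/- within slide 1 it was -0.15.

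Lists of stress and housekeeping genes differed mostly by less than 2-fold. Whatever the fold, 32 of 52 endoplasmic reticulum genes and 64 of 90 RNA transport genes were lower in R50 at an adjusted p under 0.05, with medians of -0.44 and -0.47, beside 36.1% of all genes. At the 2-fold threshold, of the 52 endoplasmic reticulum genes 4 were lower (7.69%, against 3.54% of all genes) and 1 higher. DDIT3, the stress-induced transcription factor CHOP, was at -2.37 and -2.34 against -0.03 and 0.23, a difference of -2.45. SEC61A1, the channel subunit, was at 1.60 and 1.75 against 2.77 and 2.74. Of the 90 RNA transport genes 6 were lower (6.67%, against 3.54% of all genes) and none higher. Of the 6, 4 were subunits of eIF2B, which recharges initiation factor eIF2 with GTP. EIF2B2 was at 2.86 and 2.90 against 4.14 and 4.22, EIF2B4 at 1.30 and 1.40 against 2.58 and 2.67 and EIF2B1 at 2.49 and 2.51 against 3.64 and 3.68. None of 76 ribosomal protein genes was called, at a median of 0.02. Of 37 glycolysis and hypoxia genes 4 were higher (10.8%, near the 8.43% of all genes) and 1 lower. Here ALDOC was at 2.14 and 2.12 against -0.20 and -0.22, and CA9 at -3.40 and -0.67 on R50 arrays that disagree. Lysosomal genes gave 1 higher, CTSH, and 1 lower, GLA, of 41 (2.44% each, beside 8.43% and 3.54% of all genes).

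Of 32 p53 target genes 3 were higher (9.38%) and 1 lower, near the background, and all 4 belong to the apoptosis genes of the list. BBC3, which encodes the BH3-only protein PUMA, was at 3.27 and 3.18 in R50 against 1.67 and 1.75, and TP53INP1 was at -0.12 and -0.15 against -1.97 and -2.18. CYFIP2 was at 0.07 and 0.06 against -2.05 and -2.15. PMAIP1, which encodes NOXA, went the other way, at 1.80 and 1.71 against 3.08 and 3.07. BBC3 and PMAIP1 were also the 2 genes called of 16 in the BCL2 family. That is 6.25% higher and 6.25% lower, near the 8.43% and 3.54% of all genes. None of the 5 death-blocking and 3 pore-forming members was called, too few to set against those shares. Relative to WT, R50 differed by 0.50 for BBC3 and -0.75 for PMAIP1, and WT+NU6102 by -1.02 and 0.56.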

How the data were processed

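Gene expression was measured on 8 one-colour Agilent arrays, 2 a group. The authors scanned the arrays with Agilent Feature Extraction 11.5.1.1 and deposited, per spot, a background-subtracted intensity (the processed signal) that had not been normalized between arrays. Their table of log2 values, an alternative here, equalled the log2 intensity less 1 constant per array, centred by probe. From the deposited intensity, control spots and flagged outliers were removed, replicate spots averaged and the 75th percentile of each array subtracted on the log2 scale. Every probe called well above background by both arrays of at least 1 of the 2 groups was fitted with limma 3.58.1 (R 4.3.3) in 4 groups, 2-sided. A gene was represented by its brightest tested probe. The fit was tested on simulated data. Of 20861 tested probes with a RefSeq accession 19575 matched the reference table, in which 1541 genes have another symbol now. Arrays give no counts, so precision rests on their number.

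The genes named were the 10 largest rises and falls among called genes above background on all 4 arrays, the 5 largest bounds each way, 12 cell cycle genes the study's text names and the 4 largest called members of each list, with further members given as examples. A few genes that this rule names are not reported here. The comparison and the lists were chosen with earlier results of these data known. Replicate numbers of R50 and WT+NU6102 did not pair the arrays (correlation of deviations 0.0391). Alternatives covered the background correction, scaling, dim-probe filter, fold minimum, variance prior, arrays in the fit, the methods' t-test, a replicate block and the slide.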

Additional observations from a re-analysis of the deposited data

How the results depend on the processing

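The main counts were 2054 probes higher and 928 lower in R50, with 33 interferon and 13 integrin and matrix genes higher. With normexp background correction the probes were 1014 higher and 480 lower and the interferon genes 22, with a strict filter on dim probes the interferon genes were 25, and with no minimum fold 6505 and 8370, 51 interferon genes and 24 integrin and matrix genes. Subtracting the CDK2-/- less WT difference, which removes the slide together with any effect of the knockout, gave 2120 higher and 1261 lower, 53 interferon genes and 8 integrin and matrix genes. The interferon list was lower in CDK2-/- than in WT, which is part of what is subtracted. Of the 2982 calls, 1955 held and 16 were called in the opposite direction under that setting. Of the 109 named values 10 lost their call there, NT5E, SEC23B, DNAJC3, ID3, KLF2, CXCL3, CXCL1, ABCA12, ABCC2 and CYP1B1. CLDN2 turned to 0.57 (limma adjusted p = 0.122). Among the cell cycle genes not called, CDK2, RB1 and CDKN1A also changed sign. GNG11 came to 3.59, but it was not well above background in R50 or CDK2-/- cells, so that value is no measured change of direction. The cause was not tested. Leaving out 1 array gave 1905 to 2365 probes higher, 851 to 1322 lower, 29 to 33 interferon genes and 13 integrin and matrix genes each time. OAS1 lost its call without R50 replicate 1 or WT+NU6102 replicate 2, as did CCND3, and GAS2L3, NXF1 and CXCL3 lost theirs without R50 replicate 1, CXCL3 also without R50 replicate 2. The authors' processed values gave 2053 and 927, the methods' t-test 1468 and 708 after Benjamini-Hochberg adjustment and 1837 and 816 without it, and quantile normalization 1946 and 883. With the replicate block the counts were 2053 and 920, 33 and 13, and no named call changed. Since R50 and WT+NU6102 lie on different slides, differ in dose and time and have 2 arrays each, no setting separates these.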
